A study of Mus musculus with 22 samples.

Results

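In CLIPseq, UV light links proteins to the RNA they touch, an antibody pulls down 1 of these proteins, and the RNA attached to it is sequenced. Here the protein was hnRNP A1, a nuclear RNA binding protein that takes part in splicing, and the tissue was mouse spinal cord. The footprints described are those whose midpoint lay in an exon of a long noncoding RNA (lncRNA) gene and in no protein-coding gene span. They number 960 of 136207 deposited footprints, of which 135639 lay on the chromosomes of GRCm38, and they fell in 215 of 10150 annotated lncRNA genes (2.12%). The gene types taken as lncRNA were lincRNA, antisense, processed_transcript, sense_intronic, sense_overlapping and bidirectional_promoter_lncRNA. Of the footprinted genes 141 were lincRNA, 46 processed_transcript, 27 antisense and 1 bidirectional_promoter_lncRNA, and none was sense_intronic or sense_overlapping.

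The mice were female wild-type C57Bl/6, with 3 naïve mice, 3 with mild experimental autoimmune encephalomyelitis (EAE, clinical score 1.0 to 1.5) and 4 with severe EAE (2.5 to 3.0). EAE, an induced autoimmune inflammation of brain and spinal cord, was raised with the MOG(35-55) peptide in complete Freund's adjuvant and 100 ng of pertussis toxin on days 0 and 1. The treatment protocol gives 12 weeks as the age at immunization and the design text 8 weeks, and cords were taken 15 days after clinical onset. Mice are named here by their identifiers, with Naïve_1 to Naïve_3 naïve, EAE_3, EAE_4 and EAE_7 mild, and EAE_1, EAE_2, EAE_5 and EAE_6 severe. The study describes EAE_5 as an outlier of the severe group, with footprints that resembled those of naïve and mild EAE mice. That mouse had been in remission shortly before the experiment ended. Each mouse gave 1 hnRNP A1 immunoprecipitation and 1 list of footprints, from which the authors had removed sites also seen in the mouse's own input or in pooled IgG controls. A gene's footprints are counted here in its exons only, so that a gene without one may still hold intronic footprints. Absence means that none was retained, the depth behind a single footprint is not recorded in the lists, and less RNA of a gene, fewer cells that make it and less binding cannot be told apart in this bulk tissue.

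Long noncoding RNAs are transcripts without a translated protein, often spliced and polyadenylated. Several are known for work inside the nucleus, such as Xist in silencing of the X chromosome and Neat1 in building paraspeckles, and others, such as Norad, act in the cytoplasm. Gas5 and the Snhg genes are hosts of snoRNAs, small RNAs that guide chemical modification of other RNAs. Meg3, Rian and Mirg are neighbouring noncoding genes of the imprinted Dlk1-Dio3 region, expressed from the maternal copy, and are abundant in the nervous system.

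The 5 stretches covered in most mice, each in 6 of 10, are shown because they are the most repeatable lncRNA sites of the data. They were read from GRCm38 5′ to 3′ on the strand of the gene, with UAG (TAG in the genome) in capitals.
Meg3, chr12:109545944-109546027, plus strand: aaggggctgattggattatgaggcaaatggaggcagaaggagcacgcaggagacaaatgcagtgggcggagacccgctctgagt
Meg3, chr12:109571438-109571485, plus strand: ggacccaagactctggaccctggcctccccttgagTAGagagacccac
Mirg, chr12:109749104-109749151, plus strand: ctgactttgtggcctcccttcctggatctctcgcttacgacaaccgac
Rian, chr12:109635416-109635457, plus strand: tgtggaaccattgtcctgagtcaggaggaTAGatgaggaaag
Firre, chrX:50573311-50573351, minus strand: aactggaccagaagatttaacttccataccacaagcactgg
Of these 5 stretches, 2 held a single UAG, the second Meg3 stretch and the Rian stretch, and none held AGGU. Each occurred at 1 place on the chromosomes. The Mirg and Rian stretches were covered in all 3 naïve mice, in EAE_3, EAE_4 and EAE_5, while the first Meg3 stretch was covered in Naïve_1, all 3 mild EAE mice, EAE_5 and EAE_6. At the second Meg3 stretch lncRNA genes are annotated on both strands, and the lists carry no strand.

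Most lncRNA sites were found in a single mouse. Joined across mice, the footprints formed 574 regions, of which 388 (67.6%) came from 1 mouse, 186 (32.4%) from at least 2 and 2 from 7, with none in more. By gene, 120 of 215 (55.8%) were footprinted in 1 mouse, and 2, Meg3 and Norad, in all 10, though in EAE_2 the coverage of Norad may belong to another gene. In at least 3 mice 68 of the 215 lncRNA genes held an exonic footprint, against 4864 of 10567 genes of any type. Meg3 alone held 86 footprints (8.96% of the 960), and the 10 genes with the most footprints held 417 (43.4%).

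The number of lncRNA footprints was lowest in the 3 shortest lists, those of EAE_1, EAE_2 and EAE_6, and their share did not separate the groups. Naïve_1, Naïve_2 and Naïve_3 held 140, 119 and 127 lncRNA footprints of 17038, 17358 and 17420, or 0.822%, 0.686% and 0.729%. The mild EAE mice EAE_3, EAE_4 and EAE_7 held 119, 76 and 139 of 14464, 9717 and 24339, or 0.823%, 0.782% and 0.571%. The severe EAE mice EAE_1, EAE_2, EAE_5 and EAE_6 held 23, 6, 194 and 17 of 2654, 205, 31772 and 672, or 0.867%, 2.93%, 0.611% and 2.53%. The naïve and mild EAE values overlapped, and the high shares were those of the 2 shortest lists. Their 95% exact binomial intervals, which cover counting error only, were 1.08 to 6.26% for EAE_2 and 1.48 to 4.02% for EAE_6.

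**Figure D1:**
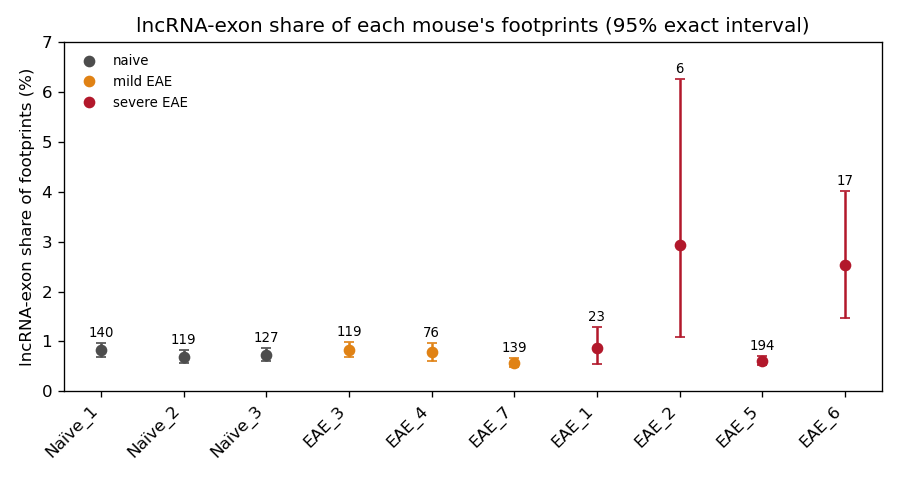
Share of each mouse's footprints that lay in lncRNA exons (percent, vertical axis) for the 10 mice, with 95% exact binomial intervals as bars and the number of lncRNA footprints above each. Naïve, mild EAE, EAE_1 and EAE_5 mice sit between 0.571 and 0.867%, and EAE_2 and EAE_6 stand higher with wide intervals.

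The mean share was 0.745% ± 0.0695 (SD, n = 3) in naïve, 0.725% ± 0.135 (n = 3) in mild EAE and 1.73% ± 1.16 (n = 4) in severe EAE mice. In two-sided exact permutation tests of the 4 contrasts the adjusted p was 0.478 for EAE against naïve (difference 0.556 percentage points), 0.9 for mild EAE against naïve (-0.0201), 0.478 for severe EAE against naïve (0.988) and 0.478 for severe against mild EAE (1.01). The smallest p these tests can give is 0.00833 for 3 mice against 7, 0.0286 for 3 against 4 and 0.1 for 3 against 3. Without the 2 lists of under 1000 footprints, EAE_2 and EAE_6, the difference was -0.0148 for EAE and -0.00683 for severe EAE, each minus naïve.

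The lncRNA footprints were longer than those in protein-coding exons and shorter than intergenic ones, in every mouse with at least 20 of them. Their median length per mouse was 129.5, 118 and 133 nt in the naïve mice, 111, 127.5 and 130 nt in EAE_3, EAE_4 and EAE_7, and 135 and 136 nt in EAE_1 and EAE_5. The mean over these 8 mice was 127.5 nt ± 8.71 (SD), against 93 nt ± 8.18 in protein-coding exons and 149 nt ± 7.67 in intergenic sequence. The lncRNA median was above the coding-exon median in 8 of 8 mice, by 34.5 nt ± 8.24, and below the intergenic median in 8 of 8, by 21.2 nt ± 8.08, each with an adjusted p of 0.00977 in the exact sign-flip permutation test over mice. The raw p of 0.00781 is the smallest that 8 mice allow. Over all 960 footprints the length ran from 7 to 919 nt.

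Repeat sequence, which the reference marks in lower case, made up 20.6% ± 2.15 (SD, n = 8 mice) of lncRNA footprint bases. In protein-coding exon footprints it was 6.73% ± 0.544 and in intergenic ones 68.8% ± 4.11, so that lncRNA footprints lay between both classes in 8 of 8 mice (exact sign-flip permutation test, adjusted p = 0.00977 for each difference). Their G+C content was 50.1% ± 2.51, against 53.6% ± 1.48 in protein-coding exons and 44.6% ± 1.08 in intergenic footprints, again between both in 8 of 8 mice (exact test, adjusted p = 0.00977 for each). With all 10 mice in the test, EAE_2 and EAE_6 included, the difference from protein-coding exons in G+C content was -2.04 percentage points and no longer passed (adjusted p = 0.0742, exact test).

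A footprint was counted as shared when it overlapped a footprint of at least 1 of the other 9 mice by more than 1 nt. Of the lncRNA footprints 68.6%, 34.5% and 58.3% were shared in Naïve_1, Naïve_2 and Naïve_3, 74.8%, 72.4% and 53.2% in EAE_3, EAE_4 and EAE_7, and 78.3% and 59.3% in EAE_1 and EAE_5. The mean of 62.4% ± 14.3 (SD, n = 8) was above the intergenic 40.7% ± 8.39 in 8 of 8 mice (exact sign-flip permutation test, adjusted p = 0.00977). It was below the 69.8% ± 9.89 of protein-coding exon footprints in 7 of 8 mice, a difference of -7.37 percentage points ± 7.43 (adjusted p = 0.0391, exact test). That last difference did not pass without Naïve_2, EAE_4, EAE_7 or EAE_5 (adjusted p = 0.0938, 0.0781, 0.234 and 0.109, exact tests), nor with EAE_2 and EAE_6 added (0.0716).

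**Figure D2:**
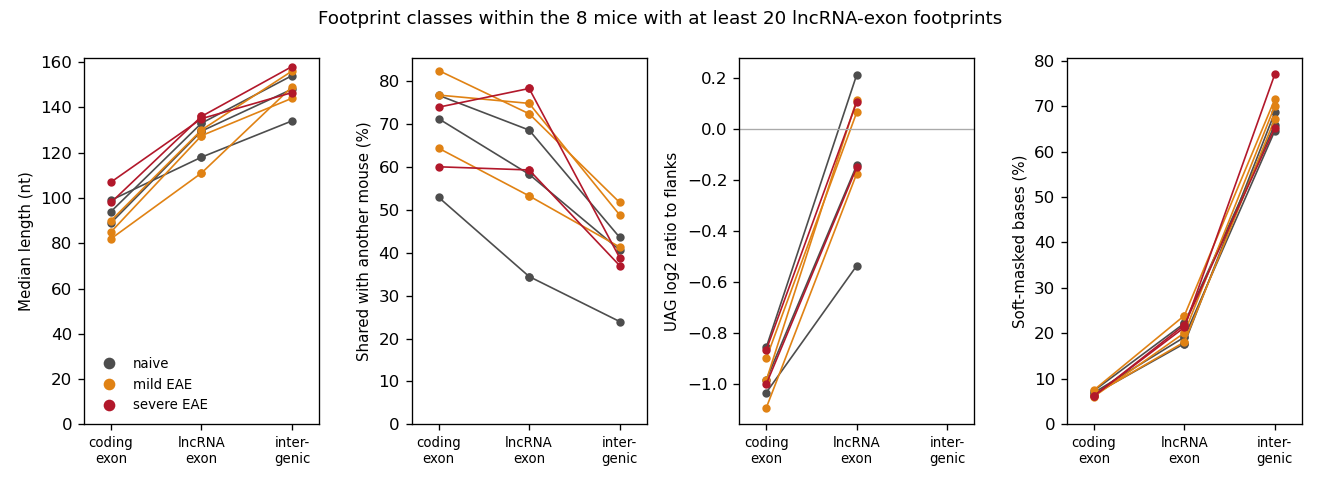
Median length (nt), footprints shared with another mouse (percent), UAG log2 ratio to flanks and soft-masked repeat bases (percent) of footprints in protein-coding exons, lncRNA exons and intergenic sequence, with 1 point per mouse and class joined within the mouse for the 8 mice with at least 20 lncRNA footprints. The lncRNA values lie between both other classes for length and repeat bases in all 8 mice, and the UAG ratio, computed for exons only, lies near 0 in lncRNA and near -1 in protein-coding exons.

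UAG is the motif hnRNP A1 is best known to bind, and AGGU is a second motif examined in this study. Both were counted on the gene strand in footprints and in equally long windows that lay 200 nt upstream and downstream. UAG occurred 12.2, 8.50 and 15.4 times per 1000 nt in the lncRNA footprints of the naïve mice, 10.3, 12.2 and 14.2 times in EAE_3, EAE_4 and EAE_7, and 11.6 and 12.9 times in EAE_1 and EAE_5. Its log2 ratio to the flanks was -0.06 ± 0.24 (SD, n = 8) in lncRNA and -0.96 ± 0.08 in protein-coding exon footprints, higher in lncRNA in 8 of 8 mice (difference 0.90 ± 0.19, exact sign-flip permutation test, adjusted p = 0.00977). The lncRNA ratio was above 0 in 4 mice, Naïve_3, EAE_4, EAE_7 and EAE_5, and below 0 in the other 4. Protein-coding exon footprints held from 5.55 (Naïve_2) to 6.72 (Naïve_3) UAG per 1000 nt. Their flanks held from 11.3 (EAE_1) to 12.2 (EAE_7). The difference thus lay in a low UAG density of coding-exon footprints, and lncRNA footprints were not richer in UAG than their flanks on average. Of the flank bases 64.1% were exonic for lncRNA footprints and 40.7% for protein-coding ones, and the part this plays in the ratios was not tested.

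For AGGU the log2 ratio was -0.09 ± 0.25 in lncRNA and -0.43 ± 0.05 in protein-coding exon footprints, higher in lncRNA in 7 of 8 mice (difference 0.34 ± 0.24, adjusted p = 0.0174, exact test). This did not pass with flanks 500 nt away (difference 0.15, adjusted p = 0.0703, exact test) or in footprints of at most 200 nt (0.30, adjusted p = 0.102, exact test). Neither motif separated EAE from naïve mice within lncRNA footprints. The UAG ratio was -0.15 ± 0.37 (SD, n = 3) in naïve and -0.01 ± 0.14 (n = 5) in EAE mice, and the AGGU ratio -0.06 ± 0.26 and -0.11 ± 0.28, with an adjusted p of 0.821 for both in exact permutation tests.

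Ends of footprints met annotated exon ends less often in lncRNA than in protein-coding exons. At least 1 end lay within 2 nt of an exon end of the gene in 379 of 960 lncRNA footprints (39.5%) and in 67401 of 86909 protein-coding ones (77.6%), a comparison made without a test. Among lncRNA genes the share ran from 0 of 34 in Norad and 4 of 86 in Meg3, to 65 of 78 in Rian, 31 of 33 in Mirg and 19 of 19 in Gas5. Norad is annotated as 1 exon of 4915 nt. Lying wholly inside annotated exons were 850 lncRNA footprints (88.5%), and 28 (2.92%) overlapped an annotated small RNA gene, against 0.198% of protein-coding exon footprints. With the joined exons of each gene cut into 3 equal parts from 5′ to 3′, 41.5%, 31.2% and 27.3% of midpoints fell in the parts in turn.

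The Dlk1-Dio3 genes Meg3, Rian, Mirg and B830012L14Rik held 198 of the 960 lncRNA footprints (20.6%). Meg3, which restrains cell growth, was covered in every mouse, with a summed footprint length of 2748, 722 and 2065 nt in the naïve mice, 1298, 2065 and 2018 nt in EAE_3, EAE_4 and EAE_7, and 1179, 136, 3824 and 141 nt in EAE_1, EAE_2, EAE_5 and EAE_6. The highest value was that of the longest list, EAE_5, the lowest were those of EAE_2 and EAE_6, and the groups overlapped. Its footprints spread along the joined exons, with 24, 28 and 34 of 86 in the 5′, middle and 3′ of 3 equal parts, and 76 of 86 (88.4%) were shared with another mouse. Rian, which hosts snoRNAs, was covered over 1149, 301 and 938 nt in the naïve mice, 1308, 422 and 1236 nt in mild EAE, and 1557 nt in EAE_5, with no exonic footprint in the other severe EAE mice, of which EAE_1 and EAE_6 held 2 and 1 elsewhere in its span. Of its 78 footprints 45 lay in the 5′ of 3 equal parts, and 1 overlapped a snoRNA gene. Mirg, the host of a microRNA cluster, was covered over 665, 132 and 424 nt in naïve, 534, 375 and 494 nt in mild EAE and 292 nt in EAE_5, and it too had none in EAE_1, EAE_2 and EAE_6.

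**Figure D3:**
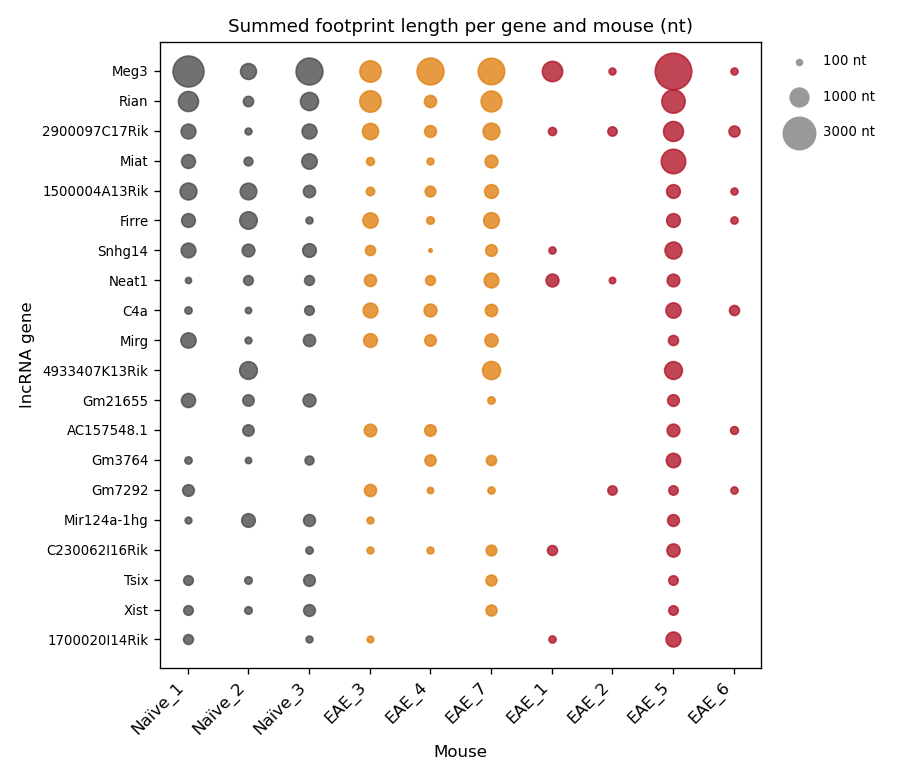
Summed footprint length in nt (area of the circle) for the 20 lncRNA genes with the most (rows) in the 10 mice (columns), with naïve mice in grey, mild EAE in orange and severe EAE in red, and no circle where no footprint was retained. Meg3 and 2900097C17Rik (Norad) have a circle in all 10 mice, and EAE_1, EAE_2 and EAE_6 have few circles.

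Norad, named 2900097C17Rik in the annotation, binds Pumilio proteins in the cytoplasm and was covered in all 10 mice. Its summed length was 626, 135 and 634 nt in the naïve mice, 749, 395 and 806 nt in mild EAE, and 189, 246, 1136 and 347 nt in EAE_1, EAE_2, EAE_5 and EAE_6, so that the groups overlapped. Of its 34 footprints 31 (91.2%) were shared. Part of Norad cannot be told apart from Gm7292, a lincRNA gene on chromosome 6, since a stretch of 118 nt covered in the same 4 mice has identical sequence in both. In EAE_2 both genes held 2 footprints of together 246 nt, so that the coverage of Norad in that mouse may belong to either gene. The stretches of Norad covered in most mice, 2 stretches with 5 of 10 mice each, are shown. Each occurred at 1 place on the chromosomes, and the first held 1 UAG and no AGGU, the second no UAG and 3 AGGU.
Norad, chr2:156389667-156389767, minus strand: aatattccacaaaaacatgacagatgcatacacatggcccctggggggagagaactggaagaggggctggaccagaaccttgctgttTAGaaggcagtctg
Norad, chr2:156389162-156389254, minus strand: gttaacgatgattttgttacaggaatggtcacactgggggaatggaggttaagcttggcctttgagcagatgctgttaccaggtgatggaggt

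Among nuclear lncRNAs, Neat1 was covered in 9 mice, over 107, 268 and 277 nt in naïve, 412, 274 and 620 nt in mild EAE, 472, 117 and 455 nt in EAE_1, EAE_2 and EAE_5, and nowhere in EAE_6. Neat1 has a short form made of its 5′ end and a long form that builds paraspeckles. Both forms hold the 5′ end, so that a footprint there cannot be assigned to either form alone. The limit of 5000 nt used next is a position in the exons and not a boundary between the forms. All footprints of the naïve and mild EAE mice lay in the first 5000 nt of its exons, as did 2 of 3 in EAE_5, while all 3 of EAE_1, the only one of EAE_2 and 1 of EAE_5 lay beyond. This makes 15 of 20 in the first 5000 nt, and the difference between mice was seen after the positions were plotted and was not tested. Miat, a nuclear RNA of neurons, was covered over 549, 219 and 678 nt in naïve, 180, 134 and 466 nt in mild EAE and 1712 nt in EAE_5, with none in the other severe EAE mice. Firre, an X-linked RNA with roles in nuclear architecture, was covered over 536, 870 and 139 nt in naïve, 662, 162 and 701 nt in mild EAE, and 535 and 148 nt in EAE_5 and EAE_6.

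**Figure D4:**
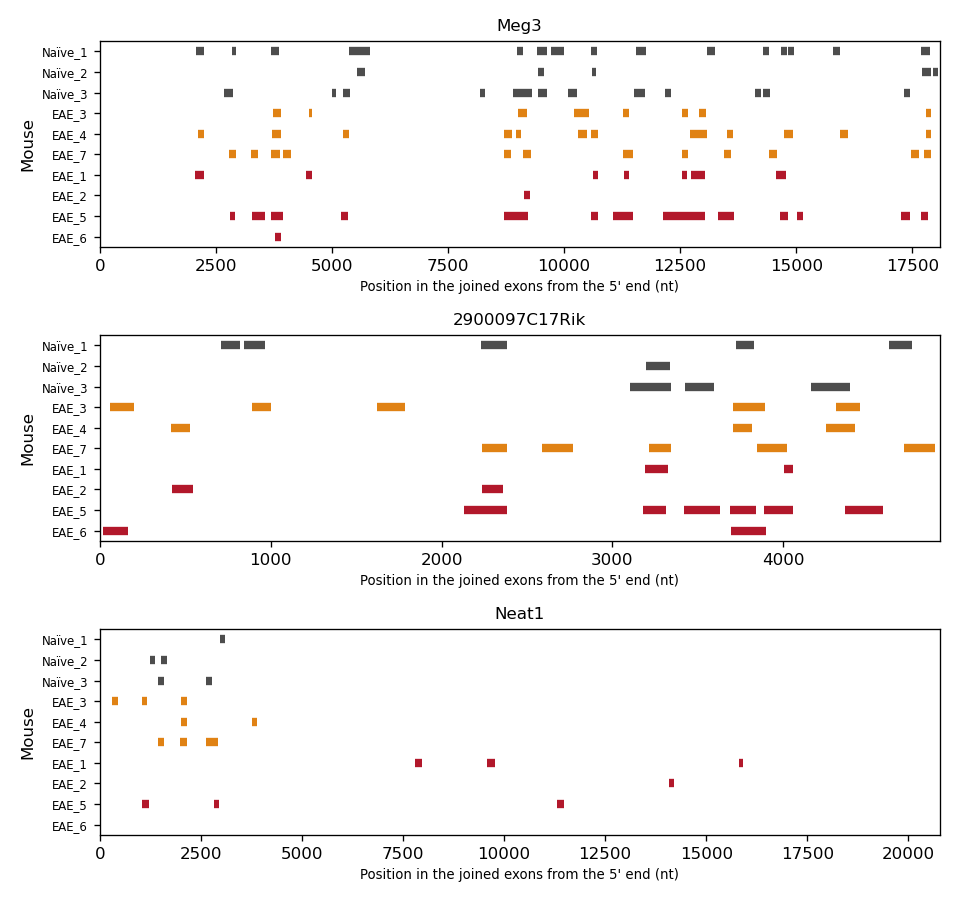
Footprints of each mouse (rows) along the joined exons of Meg3, 2900097C17Rik (Norad) and Neat1, as distance from the 5′ end in nt, with naïve mice in grey, mild EAE in orange and severe EAE in red. Meg3 and Norad footprints spread over the whole length, while 15 of the 20 Neat1 footprints lie in the first 5000 nt.

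Abundant nuclear RNAs could be sparse in these lists. Malat1, a very abundant nuclear RNA, held 1 footprint each in Naïve_3 (167 nt), EAE_3 (114 nt) and EAE_7 (22 nt) and none in the other 7 mice. Xist held 9 footprints under the rule, in a part it shares with its antisense gene Tsix, which the lists cannot separate by strand. A further 63 footprints of Xist exons lay inside the span of Gm26992, annotated as protein-coding, and 351 of Kcnq1ot1 inside the span of Kcnq1, so that the rule left them out. Of the 10 genes listed for nuclear architecture and chromatin, 8 held a footprint, with Tug1 in Naïve_1 and EAE_3, Ftx in Naïve_1 and EAE_5, and Airn in Naïve_1, Naïve_2 and EAE_5.

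The other lists were described in the same way, against 2.12% of all annotated lncRNA genes with a footprint, and they were chosen with results of these data known. Of 10 imprinted genes 6 were footprinted, among them B830012L14Rik with 113 nt in Naïve_2 alone. Of 16 annotated snoRNA host genes 8 were, including Snhg8 over 131 nt each in EAE_3 and EAE_5, Snhg1 over 94 nt in Naïve_2 and Epb41l4aos over 151 nt in Naïve_2. Of 11 neural genes 6 held a footprint, among them Rmst, which acts in neurogenesis, over 196 and 362 nt in Naïve_1 and Naïve_3, 336 and 168 nt in EAE_3 and EAE_7, and 182 nt in EAE_5. Mir124a-1hg, the host of a neuronal microRNA, was covered over 130, 530 and 402 nt in the naïve mice, 133 nt in EAE_3 and 395 nt in EAE_5. Sox2ot, which overlaps the Sox2 gene, was covered in 4 mice. Of 8 cytoplasmic or microRNA-related genes 3 held a footprint, including 1700020I14Rik (Oip5os1 or Cyrano in RefSeq), which takes part in decay of a microRNA. None of 5 ribosomal-RNA-like or repeat-like lncRNA genes did under the rule. In these lists too the rule left out footprints inside protein-coding gene spans. They were 9 of Gm26870 and 1 of Gm26905 among repeat-like genes, and 14 of Peg13 and 2 of Nespas among imprinted ones. A further 10 were of Snhg14, which is in both the imprinted and the snoRNA host list.

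Gas5 was the gene with the most footprinted nucleotides among lncRNA genes found in at least 2 naïve and no severe EAE mouse. It was covered over 304, 119 and 401 nt in Naïve_1, Naïve_2 and Naïve_3 by 5, 3 and 10 footprints, over 30 nt by 1 footprint in EAE_7, and nowhere in the other 6 EAE mice. Every naïve mouse was thus above every EAE mouse, including EAE_5, whose list of 31772 footprints is the longest of all. Of 4864 genes with an exonic footprint in at least 3 mice, 33 (0.678%) had this order, and of the 68 lncRNA genes among them 2. The exact permutation test of naïve against EAE gave p = 0.00833 for Gas5, the smallest that 3 mice against 7 allow, and an adjusted p of 1 over the 4864 genes, none of which passed after adjustment where 128 had an unadjusted p under 0.05. The other lncRNA gene was 4833422C13Rik, with 148, 115 and 131 nt in the naïve mice and none in EAE, at 3 sites that did not overlap each other. 4833422C13Rik entered the count of genes found in at least 3 mice only through the naïve mice, so that its order was fixed by that filter. Gas5 also met the filter by its 3 naïve mice alone. It was picked for having no footprint in severe EAE mice, so that its order and its p rest partly on the values that picked it.

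The Gas5 footprints were short, with a median of 37 nt and a range of 22 to 73 nt, and followed its exons. All 19 met an exon end, 13 met exon ends on both sides, and none overlapped a snoRNA gene, although 10 are annotated within Gas5. The 3 stretches covered in all 3 naïve mice are shown as the sites at which naïve mice coincided and no EAE mouse had a footprint. None of them held UAG or AGGU, and each occurred once on the chromosomes.
Gas5, chr1:161035752-161035804, plus strand: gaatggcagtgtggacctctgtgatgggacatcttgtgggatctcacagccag
Gas5, chr1:161035983-161036014, plus strand: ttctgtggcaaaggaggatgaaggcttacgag
Gas5, chr1:161036208-161036241, plus strand: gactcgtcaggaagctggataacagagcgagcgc

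**Figure D5:**
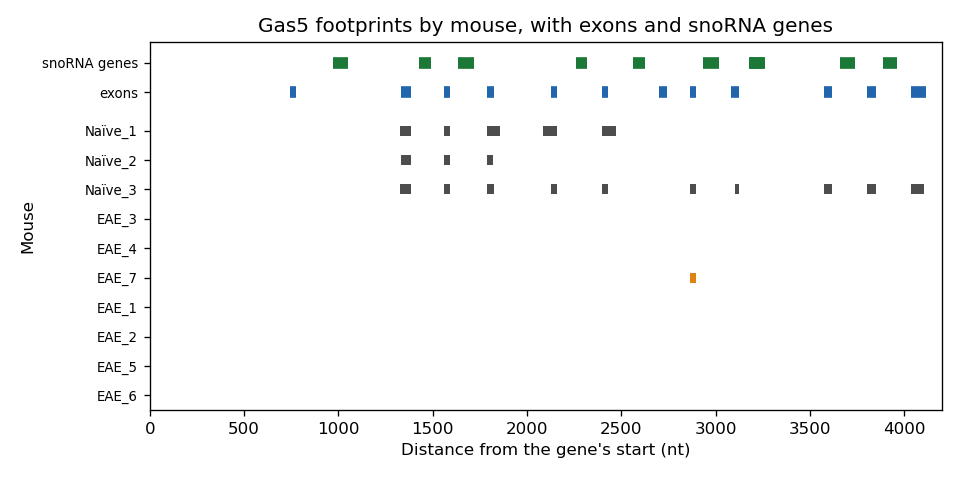
Gas5 footprints of each mouse (rows) by distance from the start of the gene in nt, with naïve mice in grey and mild EAE in orange, the exons of the transcript with most exons (12) in blue and snoRNA genes in green. Footprints of the 3 naïve mice lie on exons and between snoRNA genes, and the only one in an EAE mouse is that of EAE_7.

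Beside Gas5, 12 other lncRNA genes were found in at least 2 naïve and no severe EAE mouse, 13 of 215 (6.05%) in all, against 453 of 10567 genes of any type (4.29%). The next by summed length were 4933426B08Rik, over 195 and 250 nt in Naïve_1 and Naïve_3 and 207 and 189 nt in EAE_3 and EAE_4, and Gm49164, over 116 and 356 nt in Naïve_1 and Naïve_3 and 232 nt in EAE_7. Rab10os and AC154200.1 followed, both in Naïve_1 and Naïve_2 only. The count rested on single lists, at 34 without EAE_5, 3 without Naïve_1, and 7 without either Naïve_2 or Naïve_3. Snhg14, a long imprinted host of snoRNAs, was higher in every naïve mouse (616, 460 and 525 nt) than in every mild EAE mouse (289, 33 and 382 nt), but it reached 822 nt in EAE_5. This held for its exons outside protein-coding gene spans only, and 10 footprints of its exons inside such spans were left out by the rule. Over its whole span it had 85, 52 and 98 footprints in naïve and 47, 44 and 110 in mild EAE mice. There EAE_7, with 110, stood above every naïve mouse. The exonic order of naïve above mild EAE was found in 91 of 4864 genes (1.87%) and 4 of 68 lncRNA genes (5.88%), the others being Gas5, 4833422C13Rik and Gm21655. Gm21655 was covered over 565, 369 and 476 nt in naïve mice, 153 nt in EAE_7 and 387 nt in EAE_5, with an exact permutation p of 0.0167 for naïve against EAE and an adjusted p of 1.

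In the opposite pattern, 10 of 215 lncRNA genes (4.65%) were found in at least 2 mild EAE and no naïve mouse, against 652 of 10567 genes of any type (6.17%). Snhg17, a snoRNA host, led them, with 255 and 136 nt in EAE_3 and EAE_4, 139, 111 and 125 nt in EAE_1, EAE_5 and EAE_6, and no footprint in the naïve mice, EAE_7 or EAE_2. All 6 of its footprints overlapped a snoRNA gene, Gm23925 in EAE_3, EAE_4, EAE_1 and EAE_6 and Gm26003 in EAE_3 and EAE_5, with lengths near those of the snoRNAs. Gm23925 is also annotated as a lincRNA of 132 nt at the same place, so that these 4 footprints count for both genes. The stretch shared by those 4 EAE mice is shown because it was found in EAE of both grades and in no naïve mouse. The same was true of stretches of AC157548.1, Meg3 and Rian, genes with footprints elsewhere in Naïve_2. No share of all stretches with this pattern is given. The following holds for the Snhg17 stretch. It held neither UAG nor AGGU.
Snhg17 and Gm23925, chr2:158359795-158359919, minus strand: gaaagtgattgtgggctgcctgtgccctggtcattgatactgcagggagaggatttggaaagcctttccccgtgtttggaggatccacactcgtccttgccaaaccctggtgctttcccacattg
The others of this pattern with the most summed length were Lncpint (135 and 353 nt in EAE_3 and EAE_7 and 156 nt in EAE_5), Gm11851 (154 and 408 nt in EAE_3 and EAE_7) and 5830428M24Rik (168 and 165 nt in EAE_4 and EAE_7). Snhg20, also a host, had 107 nt in EAE_3, 109 nt in EAE_7 and 107 nt in EAE_5. The count was 1 without EAE_3, 5 without EAE_4, 4 without EAE_7 and 16 without Naïve_1.

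C4a was the lncRNA-annotated gene that was higher in every mild EAE than in every naïve mouse, with 150, 115 and 260 nt in naïve and 618, 468 and 426 nt in EAE_3, EAE_4 and EAE_7. Among genes with an exonic footprint in at least 3 mice, 314 of 4864 (6.46%) had this order, and 1 of 68 lncRNA genes (1.47%). In severe EAE it was covered over 664 and 291 nt in EAE_5 and EAE_6 and nowhere in EAE_1 and EAE_2. C4a is a relative of the complement gene C4b, annotated as processed_transcript here and as a transcribed pseudogene in RefSeq, and each of the 3 C4a stretches found in most mice, 4, occurs 2 times on the chromosomes. C4b itself, protein-coding, was covered over 653, 255 and 952 nt in naïve, 3050, 1607 and 2784 nt in mild EAE, and 1335, 0, 4086 and 213 nt in EAE_1, EAE_2, EAE_5 and EAE_6, and footprints of near-identical sequence could have been placed in either gene. Of 6 microglia and leukocyte marker genes, none held an exonic footprint in the naïve mice, 6, 3 and 4 did in EAE_3, EAE_4 and EAE_7, and 2, 0, 5 and 3 in EAE_1, EAE_2, EAE_5 and EAE_6. The part of such cells in the EAE patterns was not tested. Neuron, oligodendrocyte and astrocyte markers held footprints in all 3 naïve and all 3 mild EAE mice, at least 3 of 6 genes of each list. In EAE_1, EAE_2, EAE_5 and EAE_6 they did so for 1, 0, 6 and 0 neuron, 2, 0, 6 and 1 oligodendrocyte and 4, 0, 5 and 1 astrocyte genes. The mice without exonic Rian, Mirg and Miat footprints, EAE_1, EAE_2 and EAE_6, thus also had few neuron and oligodendrocyte genes. This did not hold for the astrocyte genes of EAE_1, which at 4 were as many as in Naïve_1 and EAE_4.

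Footprinted in at least 2 mice of each group were 7 lncRNA genes (3.26%), against 602 of 10567 genes of any type (5.7%). They were Meg3, Norad, 1500004A13Rik, Firre, Snhg14, Neat1 and C4a, and their number was 3 without EAE_5 and 4 without EAE_6. 1500004A13Rik was covered over 812, 789 and 427 nt in naïve, 200, 325 and 542 nt in mild EAE, and 534 and 139 nt in EAE_5 and EAE_6, with overlap between groups. Chosen after its values were seen, 4933407K13Rik (Dxz4 in RefSeq), an X-linked repeat locus, had 894, 930 and 906 nt in Naïve_2, EAE_7 and EAE_5, by 6 footprints of 149 to 155 nt in each of these 3 mice, and none in the other 7. A 147-nt stretch of it common to the 3 mice occurs 4 times on the chromosomes, so that 1 RNA fragment could have been placed at several of these sites.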

How the data were processed

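CLIPseq for hnRNP A1 was analysed in spinal cords of 3 naïve, 3 mild EAE and 4 severe EAE mice. The deposited lists hold positions only (chromosome, start and end), with no score, strand or read count, so the depth behind a footprint is unknown. Per the labels and the study's methods, the authors demultiplexed reads (bcl2fastq 2.19.0.316), trimmed them (fastp), assembled them into contigs (rnaSPAdes) and aligned the contigs to GRCm38 in spliced mode (minimap2 2.17). They then removed background sites and merged overlapping ones with bedtools, so that footprint edges follow contigs and exon junctions, and a site also present in a control is lost whatever its enrichment.

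Footprints were assigned by midpoint to GENCODE mouse release 21 genes on GRCm38, and sequence was read from the RefSeq copy of that build (Python 3.11.15, numpy 2.4.6, scipy 1.17.1, pysam 0.24.0, matplotlib 3.10.9). Motifs were counted on the gene strand. Mice were grouped by treatment and clinical score. Groups were tested on their means by exact permutation (two-sided), with Benjamini-Hochberg adjustment over 4 contrasts (2 for motifs), and classes of footprint by exact sign-flip permutation tests over mice with at least 20 footprints, adjusted over 10 comparisons, with a threshold of 0.05. Tests were checked on short sets of values with known answers, and the assignment and sharing of footprints on simulated lists. The labels name separate mice, so that n counts animals. Named genes were the 10 with most footprinted nucleotides, the 10 found in most mice, the 5 leading each presence pattern, members of the gene lists with a footprint, and those whose groups did not overlap. The members and lists were chosen with earlier results of these data known. The per-gene test of naïve against EAE mice and the removal of lists under 1000 footprints were added after seeing the data. Other alternatives varied length limits, merging, membership, denominator, flanks and mice. The 568 footprints outside the chromosomes were left out.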

Additional observations from a re-analysis of the deposited data

Results flagged for a closer look

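Among 21 groups of values examined for a single sample far from the rest, 4 had one. A chance rate of about 1 in 20 assumes normally distributed values. It does not hold for Rian and Miat, at 0 nt in the other severe EAE mice, so the 4 cannot be set against it. The excess of the UAG log2 ratio in lncRNA over protein-coding exon footprints was 0.50 in Naïve_2, below the 0.84 to 1.10 of the other 7 mice. Among severe EAE mice EAE_5, the longest list and the mouse that the study calls an outlier, stood above the others in footprinted length. This was so for Norad (2900097C17Rik, 1136 nt), Rian (1557 nt) and Miat (1712 nt). Outside the chromosomes, on sequences not used in any comparison, lay 568 footprints.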

How the results depend on the processing

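Of the 294 values recomputed under other settings, 266 kept their direction and their side of the threshold, or, for a count, stayed within 1.5 times. Part of the 266 could not change, as where the mouse left out had no part in the comparison. The same holds where ribosomal-RNA-like loci, which held no footprint, were removed, so that 266 is not a measure of stability. The cause was not tested for any of the changes below. Without the lists of under 1000 footprints (EAE_2 and EAE_6), a setting chosen after seeing the data, the difference in lncRNA share turned to -0.0148 percentage points for EAE and -0.00683 for severe EAE, each minus naïve, and 4 genes were found in at least 2 mice of each group. As a share of covered nucleotides, mild EAE minus naïve was 0.0302. With mice of any number of footprints, the difference from protein-coding exons was -6.74 percentage points in sharing, 0.35 in the AGGU log2 ratio and -2.04 percentage points in G+C content, none past the threshold, and the AGGU difference was 0.15 with flanks 500 nt away and 0.30 in footprints of at most 200 nt.

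With each mouse left out in turn, the share difference ran from 0.285 to 0.678 for EAE minus naïve, from -0.0688 to 0.0570 for mild EAE minus naïve, from 0.590 to 1.36 for severe EAE minus naïve and from 0.610 to 1.38 for severe minus mild EAE. Mild EAE minus naïve turned positive without Naïve_1 (0.0180) or EAE_7 (0.0570). The difference from protein-coding exons ran from -9.24 to -3.86 in sharing and from 0.29 to 0.39 in the AGGU ratio. EAE minus naïve ran from -0.0434 to 0.331 (log2) for UAG, negative without Naïve_2 (-0.0434), and from -0.190 to 0.0622 for AGGU, positive without Naïve_1 (0.0622) or EAE_1 (0.0494). The gene counts ran from 3 to 34, from 1 to 16 and from 3 to 7 for the naïve-not-severe, mild-not-naïve and each-group patterns. No paired analysis was possible because the naïve, mild and severe EAE mice are different animals and their replicate numbers follow accession order only. Removing ribosomal-RNA-like loci removed no footprint.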
